A study of Mus musculus with 9 samples.

Results

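Mast cell genes were followed in primary mammary tumours grown from the mouse carcinoma lines 67NR, 66cl4 and 4T1. The set holds 10 genes of 18194 measured: the granule proteases Cpa3, Tpsab1, Tpsb2, Cma1 and Mcpt4, the receptors Fcer1a, Ms4a2, Kit and Mrgprb1, and the transcription factor Gata2. They were chosen by what they are known for and by their log2 signals on these same arrays, on which several of the proteases were far higher in 67NR tumours. The differences of 66cl4 and 4T1 from 67NR tumours are therefore given as a description with no test. For each gene, every probe set that the array annotation gives to that gene alone was taken, 14 in all, and the brightest on average across all 9 arrays stands for the gene.

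Each group held 3 female BALB/c mice, 7 to 9 weeks old. A mouse received 1000000 viable cells of 67NR/CMVLUC, 66cl4/CMVLUC or 4T1/CMVLUC in a mammary gland. The primary tumour was removed after 15 days, total RNA came from tumour areas isolated by laser capture, and each mouse gave 1 array. The lines come from the same parent tumour of this strain, and the host keeps its own mast cells, vessels and leukocytes, so the RNA can hold transcripts of both tumour and host cells. Each group stands for a single cell line. In such bulk samples, fewer cells of a type and less RNA per cell cannot be told apart.

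Mast cells are tissue-resident cells of bone marrow origin that store proteases, histamine and serotonin in granules bound to serglycin. They mature in tissues under the stem cell factor encoded by Kitl, which binds the receptor tyrosine kinase encoded by Kit, and the factors GATA2 and MITF drive their gene programme. The high-affinity receptor for IgE, built from an alpha, a beta and a gamma chain, triggers release of the granules when its bound IgE meets antigen. Mast cells of connective tissue, as around the mammary gland, carry both tryptases and chymases.

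Values are deposited log2 signals, so a difference of 1 is a 2-fold change. The array medians were 5.51 to 5.58. Signals of 27 control probe sets for bacterial transcripts served as background, and the highest of them was 4.83 to 5.08 per array. Where none of a line's 3 arrays exceeded this limit, the gene is called not above background in that line, and its fold is a bound computed against the limit. A p-value printed beside such a bound is of the fitted difference, which uses values under the limit, and is no test of the bound. As a check of the labels, Krt8 was at 13.01 ± 0.20 in 66cl4, 13.48 ± 0.20 in 4T1 and 6.74 ± 0.18 in 67NR tumours. Cdh1 was at 10.93 ± 0.17 in 4T1 tumours and not above background in the others. Krt18 averaged 4.77 in 67NR tumours, where 1 of 3 arrays exceeded background, beside 5.47 for 66cl4 and 13.39 for 4T1. Epcam exceeded background on every array, with means of 7.17 for 67NR, 7.03 for 66cl4 and 8.24 for 4T1. Low Krt8 therefore set 67NR tumours apart from both other lines, while Cdh1, Krt18 and Epcam set 4T1 tumours apart. All errors of group means are SD over 3 mice.

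The members' start regions are shown because the 10 genes were high and low together. RefSeq promoters of build GRCm38.p6, each 300 bases long with 250 bases before the transcript start and 50 after, were matched by symbol for 8 of the 10 genes. This reference is of strain C57BL/6J, not BALB/c. The letters AGATAA, which GATA factors can bind, were searched on both strands, with the forms that begin with T (TGATAA), that end in G (AGATAG) or that do both (TGATAG). The 5 promoters printed are those of the chymase and carboxypeptidase genes and of the IgE receptor subunits, 5′ to 3′ in the direction of the gene, with the matches in capitals.
Cpa3: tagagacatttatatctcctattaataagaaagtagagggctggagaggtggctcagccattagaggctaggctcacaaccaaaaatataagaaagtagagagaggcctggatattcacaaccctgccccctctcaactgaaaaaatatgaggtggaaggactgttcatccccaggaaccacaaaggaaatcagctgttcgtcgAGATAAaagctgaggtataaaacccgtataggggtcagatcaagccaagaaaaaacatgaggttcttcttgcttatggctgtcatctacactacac
Cma1: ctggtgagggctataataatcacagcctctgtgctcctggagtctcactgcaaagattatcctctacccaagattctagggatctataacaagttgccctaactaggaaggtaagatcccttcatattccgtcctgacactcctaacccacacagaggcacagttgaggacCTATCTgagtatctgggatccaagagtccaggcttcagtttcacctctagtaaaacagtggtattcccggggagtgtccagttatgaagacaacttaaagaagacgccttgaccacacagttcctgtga
Mcpt4: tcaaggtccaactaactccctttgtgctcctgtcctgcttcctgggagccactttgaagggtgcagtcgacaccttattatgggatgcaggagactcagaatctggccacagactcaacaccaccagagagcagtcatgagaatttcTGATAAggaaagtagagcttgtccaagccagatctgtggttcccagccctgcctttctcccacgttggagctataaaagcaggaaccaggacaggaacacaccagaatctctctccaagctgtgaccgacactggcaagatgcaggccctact
Fcer1a: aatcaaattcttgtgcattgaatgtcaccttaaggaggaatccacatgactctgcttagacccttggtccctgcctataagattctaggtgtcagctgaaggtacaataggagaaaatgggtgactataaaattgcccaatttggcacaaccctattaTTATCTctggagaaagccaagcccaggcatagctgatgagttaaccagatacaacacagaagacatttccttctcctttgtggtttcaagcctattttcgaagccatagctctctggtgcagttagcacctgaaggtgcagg
Ms4a2: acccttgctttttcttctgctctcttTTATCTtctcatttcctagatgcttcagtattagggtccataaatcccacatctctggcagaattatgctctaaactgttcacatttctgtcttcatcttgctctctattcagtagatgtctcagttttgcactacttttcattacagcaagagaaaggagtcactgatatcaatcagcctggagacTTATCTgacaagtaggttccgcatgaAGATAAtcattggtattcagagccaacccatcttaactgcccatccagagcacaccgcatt

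The Cpa3 window lies on the minus strand at chr3:20242132-20242431, and its match AGATAA starts 46 bases before the transcript start. The Cma1 window is chr14:55944626-55944925 and the Mcpt4 window chr14:56062261-56062560, both on the minus strand with 1 match each, that of Cma1 starting 79 bases before the transcript start. The Fcer1a window is chr1:173227180-173227479, minus strand, with a match 92 bases before the start. The Ms4a2 window is chr19:11623670-11623969, minus strand, and holds 3 matches, at 224, 37 and 11 bases before the start. The Mrgprb1 window holds 2 matches, and the windows of Kit and Gata2 hold none. In all, 6 of the 10 windows of the 8 genes hold a match, against 29.8% of 32851 RefSeq promoters of the same length. Kit and Gata2 have 2 windows each, and those of Kit overlap almost in full. The letters CATGTG, or CACGTG in place of them, to which MITF can bind, were found on either strand in 1 of the 10 windows, that of Fcer1a, against 20.4% of all promoters. A match describes the letters and shows no binding.

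All 10 genes had higher signals in each of the 3 67NR tumours than in any 66cl4 or 4T1 tumour. Over all 13410 genes tested, 23.7% lay lower without overlap in 66cl4 than in 67NR and 26.3% in 4T1 than in 67NR. Since these contrasts chose the members, nothing is read from that count. The median log2 difference of the members was -4.96 for 66cl4 and -5.18 for 4T1 tumours, or -4.34 and -4.48 when bounds replaced the values of dim genes, beside 0.01 and -0.03 over all genes. All 10 passed the filter on dim genes, but Fcer1a, Ms4a2 and Mrgprb1, which is 3 of them, passed through the 67NR arrays alone. These 3 genes were also the members not above background in both other lines.

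**Figure D1:**
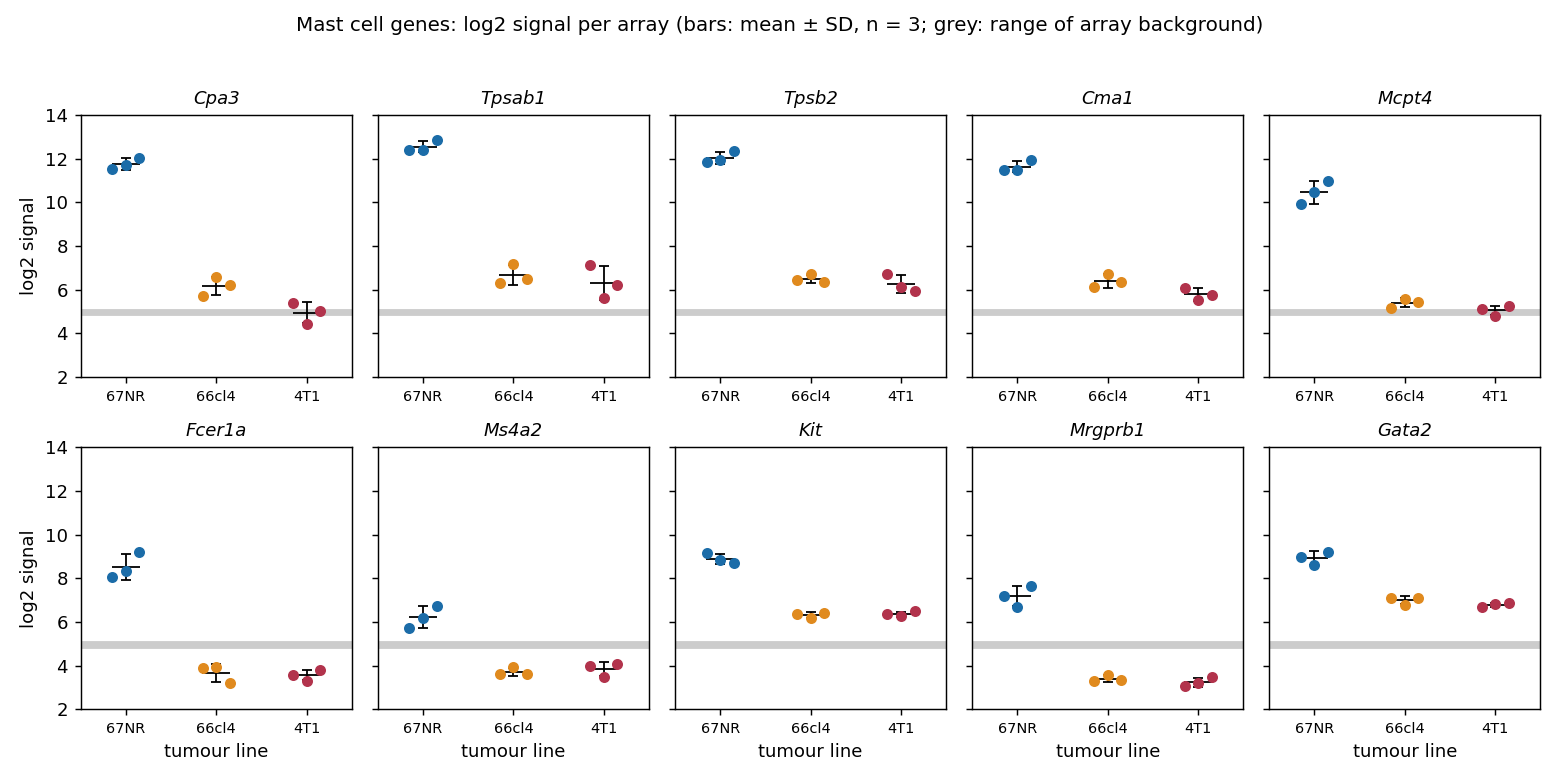
Log2 signal of the 10 genes on each array, by tumour line; dots are mice (3 per line, replicates 1 to 3 from left to right), bars the mean ± SD, and the grey band the range of the array background, 4.83 to 5.08. The 67NR dots lie above all others in every panel, and Fcer1a, Ms4a2 and Mrgprb1 lie below the band in 66cl4 and 4T1 tumours.

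Cpa3 encodes carboxypeptidase A3, which trims peptides in the granules. Its probe set 1448730_at gave 11.52, 11.72 and 12.04 in 67NR, 5.73, 6.58 and 6.21 in 66cl4 and 5.38, 4.42 and 5.0 in 4T1 tumours. The 67NR values stood far above the rest, and in 4T1 only 1 of 3 arrays lay above background. The difference from 67NR was -5.59 ± 0.27 for 66cl4 and -6.83 ± 0.27 for 4T1 tumours (log2, SE of the fit, n = 3 per line).

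The tryptases are tetrameric trypsin-like proteases held on heparin. Tpsb2, known as mouse mast cell protease 6, gave 11.85, 11.92 and 12.35 in 67NR, 6.43, 6.70 and 6.35 in 66cl4 and 6.70, 6.10 and 5.93 in 4T1 tumours on probe set 1422180_a_at. The 66cl4 and 4T1 values overlapped each other and were all above background. Its difference from 67NR was -5.55 ± 0.21 for 66cl4 and -5.80 ± 0.21 for 4T1. Tpsab1, known as mouse mast cell protease 7, gave 12.39, 12.39 and 12.84 in 67NR, 6.32, 7.19 and 6.50 in 66cl4 and 7.14, 5.60 and 6.19 in 4T1 tumours on probe set 1426175_a_at. The 4T1 tumours were spread most widely for this gene, with an SD of 0.78. The RefSeq table of C57BL/6J lists Tpsab1 as a transcribed pseudogene, and the BALB/c strain used here is known to carry the intact gene. Both tryptase genes lie on chromosome 17 and are close relatives, so their probe sets may read each other's transcripts.

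The other Tpsb2 probe set, 1451802_at, read far less. It gave 4.84, 5.14 and 5.03 in 67NR tumours, of which 1 lay above background, and means of 3.91 in both other lines. The direction was the same, at -1.09 in both lines, but the size was not. With the mean of both probe sets the Tpsb2 difference was -3.32 for 66cl4 and -3.45 for 4T1 tumours.

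Cma1 and Mcpt4 belong to the chymase family of granule serine proteases, and both genes lie on chromosome 14 in a cluster of related proteases. Cma1, known as mouse mast cell protease 5, gave 11.46, 11.49 and 11.94 in 67NR, 6.10, 6.71 and 6.35 in 66cl4 and 6.08, 5.51 and 5.76 in 4T1 tumours (probe set 1449456_a_at). Each 4T1 value lay below each 66cl4 value. Its difference from 67NR was -5.24 ± 0.20 for 66cl4 and -5.85 ± 0.20 for 4T1. Mcpt4 gave 9.92, 10.47 and 10.96 in 67NR, 5.18, 5.58 and 5.42 in 66cl4 and 5.10, 4.80 and 5.24 in 4T1 tumours (probe set 1425967_a_at). Its values outside 67NR lay close to background, with 2 of 3 4T1 arrays above it, and its differences were -5.06 ± 0.24 and -5.40 ± 0.24.

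The IgE receptor chains specific to mast cells and basophils were measurable in 67NR tumours alone. Fcer1a, encoding the alpha chain that binds IgE, gave 8.07, 8.33 and 9.19 in 67NR tumours and 3.21 to 3.93 in the 6 other tumours (probe set 1421775_at). It was at least 12.3-fold lower in 66cl4 and at least 11.8-fold lower in 4T1 tumours. Ms4a2, encoding the beta chain that amplifies the signal, gave 5.74, 6.17 and 6.74 in 67NR tumours and 3.47 to 4.08 in the others (probe set 1443264_at). Its bounds were at least 2.48-fold lower in 66cl4 and at least 2.37-fold lower in 4T1. Its other probe set, 1421475_at, gave 4.93, 4.76 and 5.70 in 67NR tumours, with 2 of 3 arrays above background, and means of 3.67 and 3.66 in 66cl4 and 4T1.

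Mrgprb1 belongs to the Mas-related G protein-coupled receptors, some of which mast cells use to respond without IgE. It gave 7.18, 6.71 and 7.63 in 67NR, 3.28, 3.59 and 3.34 in 66cl4 and 3.08, 3.19 and 3.47 in 4T1 tumours (probe set 1437529_at). No array of the other lines was above background, and the gene was at least 4.81-fold lower in 66cl4 and at least 4.60-fold lower in 4T1 tumours.

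Kit and Gata2, which other cells also use, kept a signal above background in every tumour on their brighter probe sets. Kit gave 9.14, 8.86 and 8.70 in 67NR, 6.37, 6.18 and 6.42 in 66cl4 and 6.35, 6.26 and 6.49 in 4T1 tumours (probe set 1452514_a_at). Its difference from 67NR was -2.58 ± 0.13 for 66cl4 and -2.53 ± 0.13 for 4T1. The dimmer Kit probe set, 1415900_a_at, had means of 6.55, 4.89 and 4.80 in 67NR, 66cl4 and 4T1, and was above background on 2 of 3 66cl4 arrays and on 0 of 3 4T1 arrays. Gata2 gave 9.00, 8.60 and 9.21 in 67NR, 7.12, 6.80 and 7.09 in 66cl4 and 6.69, 6.81 and 6.85 in 4T1 tumours (probe set 1450333_a_at). Its differences were -1.93 ± 0.16 and -2.15 ± 0.16, and its dimmer probe set gave -1.04 and -1.23.

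**Figure D2:**
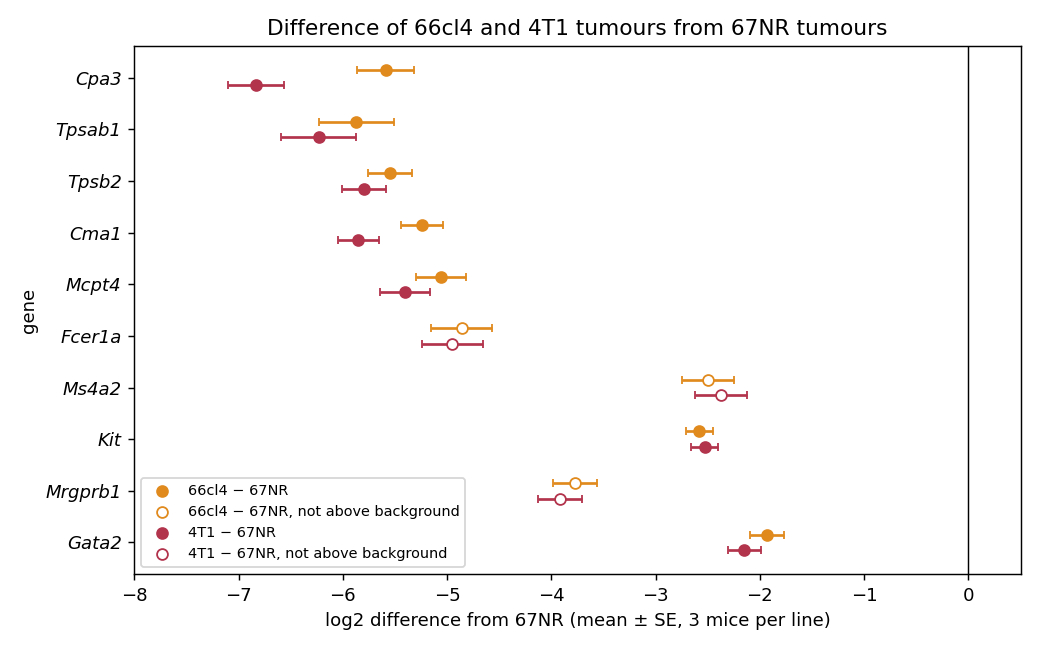
Log2 difference of 66cl4 and 4T1 tumours from 67NR tumours for the 10 genes, with the SE of the fit (3 mice per line); open symbols mark lines in which the gene was not above background. Open symbols are placed at the fitted difference, which uses values under the background, and not at the bound. The proteases lie between -6.83 and -5.06, and Gata2 is plotted nearest to 0 at -1.93 and -2.15. By its bounds Ms4a2 was at least 2.48-fold and at least 2.37-fold lower in 66cl4 and 4T1, beside 3.81-fold and 4.45-fold for Gata2.

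Between 66cl4 and 4T1 tumours 7 members could be compared, since Fcer1a, Ms4a2 and Mrgprb1 were not above background in either line. Of these 7, Cpa3 and Cma1 passed the test, 2 members, where 41.3% of all genes did, 23.4% lower and 17.9% higher in 4T1. Cpa3 was lower in 4T1 than in 66cl4 tumours by -1.24 ± 0.27 (limma adjusted p = 0.00489), with no overlap between lines but 2 of 3 4T1 arrays at background. Cma1 was lower by -0.61 ± 0.20 (limma adjusted p = 0.0363), and this call ended under 6 of 16 alternatives, with adjusted p between 0.0629 and 0.129. Without 66cl4 replicate 2, 66cl4 replicate 3, 4T1 replicate 2 or 4T1 replicate 3, the Cma1 difference was -0.44, -0.63, -0.47 or -0.59. For the other 5 measurable members the 95% interval of the difference included 0. It ran from -1.17 to 0.44 for Tpsab1, the widest of them, and from -0.25 to 0.34 for Kit. This contrast shares its arrays with those that chose the members.

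Within a line the proteases went up and down together from tumour to tumour. Among the 67NR tumours, replicate 3 had the highest value for 9 of the 10 members. Kit was the exception, with its highest value in replicate 1 and its lowest in replicate 3. Of the 7 members measurable in every line, 5 were highest in replicate 2 among 66cl4 tumours, and 5 were lowest in replicate 2 among 4T1 tumours. After each line's mean was taken off, the 10 pairs of proteases correlated over the 9 arrays at r = 0.49 to 0.96, with a median of 0.77. Kit correlated with the 6 others of those 7 members at -0.64 to 0.11, below 0 for 5 of them. These correlations share the arrays and their scaling and are a description.

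Genes of the wider mast cell programme followed the members in part. A list of 75 further mast cell genes, of which 64 were measured and 54 tested, had 24 called between 66cl4 and 67NR tumours, 17 lower and 7 higher, or 44.4% called beside 36.1% of all genes (16% lower and 20% higher). Between 4T1 and 67NR it had 32 called, 23 lower and 9 higher, or 59.3% beside 39.9% (20.5% lower and 19.4% higher). The median difference was -0.08 for 66cl4 and -0.35 for 4T1. When the number in the scan file name, highest for the 67NR arrays, entered the fit, 13 were called between 4T1 and 67NR. Between 4T1 and 66cl4 tumours 15 were lower and 8 higher, 42.6% beside 41.3%.

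Several genes of amine storage were measurable in 67NR tumours alone. Slc18a2, the transporter that loads histamine and serotonin into granules, gave 5.69, 5.57 and 5.96 in 67NR and 3.38 to 3.87 in the other tumours. It was at least 1.78-fold lower in 66cl4 (limma adjusted p = 2.53e-06) and at least 1.71-fold lower in 4T1 tumours (2.71e-06). Tph1, which starts serotonin synthesis, was at 5.83 ± 0.37 in 67NR and at least 1.90-fold lower in 66cl4 (limma adjusted p = 0.000111) and 1.82-fold lower in 4T1 (0.000131). Maob, a monoamine oxidase, was at 5.58 ± 0.32 in 67NR and at least 1.60-fold and at least 1.53-fold lower in 66cl4 and 4T1 (limma adjusted p = 7.29e-05 and 0.000176). None of the 3 was above background outside 67NR. Over this list 4 of 8 genes were lower and 0 higher in 66cl4, beside 16% lower and 20% higher over all genes. In 4T1 tumours 4 were lower and 1 higher, beside 20.5% and 19.4%.

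Srgn, which encodes the serglycin core, and Hdc, which makes histamine, are named here after their values were seen. Srgn was higher in 4T1 than in 67NR tumours by 0.92 ± 0.33 (limma adjusted p = 0.0478) with overlapping arrays, and 66cl4 did not pass (0.65 ± 0.33, limma adjusted p = 0.152). The Srgn call ended under 10 of the 16 alternatives, with 0.28 when the scan file number entered the fit (adjusted p = 0.744) and 0.67 to 1.07 without any of 67NR replicates 1 to 3, 66cl4 replicate 1 or 4T1 replicates 2 and 3. Hdc, histidine decarboxylase, gave 8.03, 6.61 and 6.46 in 67NR, 5.62, 5.71 and 5.42 in 66cl4 and 6.02, 6.24 and 6.48 in 4T1 tumours. It was lower in 66cl4 by -1.45 ± 0.35 (limma adjusted p = 0.00939) and by -0.95 without 67NR replicate 1, and 4T1 did not pass (-0.79 ± 0.35, limma adjusted p = 0.101; -0.29 without that replicate, and -1.07 with adjusted p = 0.0448 without 67NR replicate 3). Ndst2, which sulphates heparin, fell by 0.57 ± 0.12 in 4T1 tumours (limma adjusted p = 0.00411) and had 0.27 ± 0.12 in 66cl4 (0.109), and the 4T1 call ended when the scan file number entered the fit (-0.45, adjusted p = 0.163).

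Other granule proteases of mast cells and related cells had calls in both directions. Of 10 listed, 6 were measured and 5 tested. Compared with 67NR, 1 was higher and 2 lower in 66cl4, beside 20% and 16% of all genes. The 4T1 counts were 1 higher and 1 lower, beside 19.4% and 20.5%. Mcpt8, a basophil protease, ran the opposite way, with 5.10, 4.49 and 4.83 in 67NR, 6.18, 6.66 and 5.49 in 66cl4 and 7.52, 7.94 and 6.05 in 4T1 tumours. It was higher in 4T1 than in 67NR by 2.36 ± 0.45 (limma adjusted p = 0.00231) and in 66cl4 by 1.31 ± 0.45 (0.0462), and 1 of 3 arrays of 67NR exceeded background. The 66cl4 call ended without 67NR replicate 1, 2 or 3 (1.45, 1.15 and 1.32) and without 66cl4 replicate 1 or 2 (1.27 and 1.03). It also ended with no filter (adjusted p = 0.0552), the scan file number (0.0522) and values raised to the background (1.11, adjusted p = 0.0741). Mcpt2, a mucosal mast cell protease, was at least 1.80-fold lower in 66cl4. The test was of its difference of -1.38 ± 0.48 (limma adjusted p = 0.0468), which uses values under the background. In 4T1 it did not differ by the test (0.13 ± 0.48, limma adjusted p = 0.86). The Mcpt2 call in 66cl4 ended with values raised to the background (-0.85, adjusted p = 0.174). It also ended with quantile normalization (adjusted p = 0.0553), no filter (0.0558) and the replicate block (0.0687). Of the 9 fits that leave out an array, 7 ended it, with adjusted p of up to 0.13. Tpsg1, a membrane-bound tryptase, fell by 0.57 ± 0.15 in 66cl4 and by 0.43 ± 0.15 in 4T1 tumours (limma adjusted p = 0.0142 and 0.0433). The Tpsg1 call in 66cl4 ended without 67NR replicate 2 or 3 or 66cl4 replicate 2 (-0.49, -0.53 and -0.49). The call in 4T1 ended without 67NR replicate 2 or 3, 66cl4 replicate 3 or 4T1 replicate 1 or 2, with values of -0.48 to -0.32. It also ended with the replicate block (adjusted p = 0.066), no filter (0.0504) and the scan file number (0.114).

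Of the surface markers 10 were measured, 6 of them not above background on any of the 9 arrays, which left 4 tested genes. Among these Csf2rb, the shared receptor chain for IL-3 and GM-CSF, fell by 1.19 ± 0.15 in 66cl4 tumours (limma adjusted p = 0.000273). Il3ra, the other IL-3 receptor chain, fell by 0.61 ± 0.15 in 66cl4 (limma adjusted p = 0.0122), a call that ended when the scan file number entered the fit (-0.38, adjusted p = 0.154). The dim genes Cd200r3 and Rgs13, named after their values were seen, were at 4.21 ± 0.33 and 3.97 ± 0.62 in 67NR and not above background in any line, so they cannot show a difference here.

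The ligand of Kit was high in the same tumours as Kit. Kitl gave 11.91, 12.10 and 12.06 in 67NR, 10.11, 9.73 and 10.01 in 66cl4 and 10.47, 8.24 and 10.09 in 4T1 tumours. It was lower than in 67NR by -2.07 ± 0.46 in 66cl4 (limma adjusted p = 0.00611) and by -2.42 ± 0.46 in 4T1 (0.00221), with no overlap. Without 4T1 replicate 2, the lowest array, the 4T1 difference was -1.75, a 3.36-fold rather than 5.37-fold difference. Il33, an alarm cytokine that activates mast cells through ST2, gave 10.54, 9.47 and 9.49 in 67NR, and was lower by -2.02 ± 0.42 in 66cl4 (limma adjusted p = 0.00441) and -2.33 ± 0.42 in 4T1 (0.00172). The Il33 call in 4T1 ended when the scan file number entered the fit (-2.39, adjusted p = 0.0622).

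Tslp and Il10 had their highest signals in 4T1 tumours, and neither passed the test between 66cl4 and 67NR. Tslp, an epithelial cytokine, was at 8.69 ± 1.35 in 4T1 tumours and not above background in 67NR, so it was at least 13.4-fold higher in 4T1 (limma adjusted p = 0.000174). That bound was 20.4-fold without 4T1 replicate 1 and 8.11-fold without 4T1 replicate 3. In 66cl4 tumours 1 of 3 arrays was above background for Tslp. Il10 was at 6.03 ± 0.90 in 4T1 tumours and not above background in the others, at least 2.12-fold higher than in 67NR (limma adjusted p = 0.00328). The Il10 call ended when the scan file number entered the fit (1.2, adjusted p = 0.199). Il9 and Tgfb1, named after their values were seen, were not called in either line, and Il3, Il4 and Il13 were not above background on any array. Over the list, 2 of 6 tested genes were lower and 0 higher in 66cl4, beside 16% and 20% of all genes. For 4T1, 2 were lower and 2 higher, beside 20.5% and 19.4%.

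**Figure D3:**
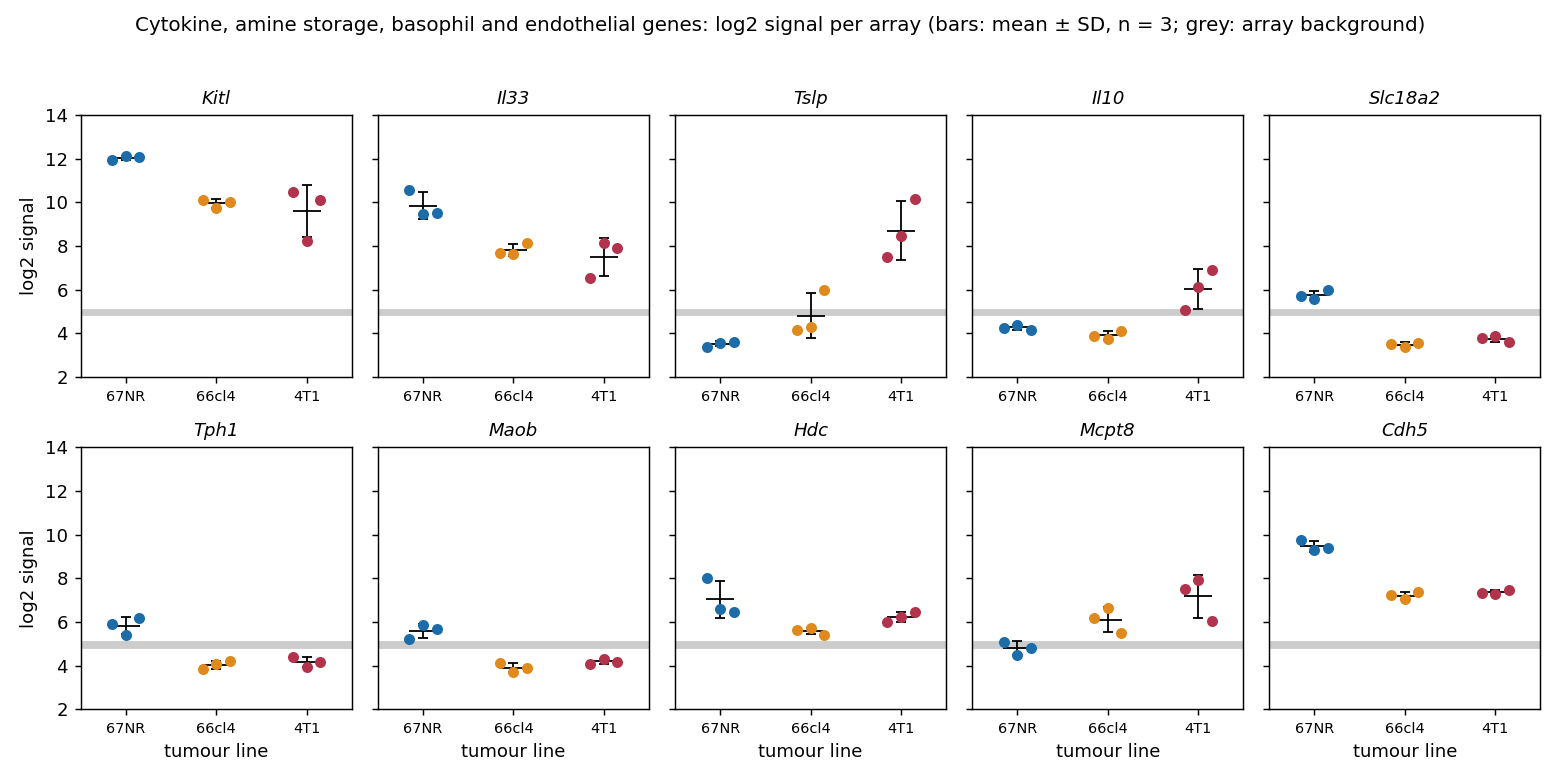
Log2 signal per array of cytokine genes (Kitl, Il33, Tslp, Il10), amine genes (Slc18a2, Tph1, Maob, Hdc), the basophil protease gene Mcpt8 and the endothelial gene Cdh5; dots are mice, bars the mean ± SD of 3, the grey band the array background. Kitl, Il33 and Slc18a2 are highest in 67NR tumours, while Tslp and Mcpt8 are highest in 4T1 tumours.

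The genes of IgE receptor signalling, many of which other leukocytes also use, were called mostly lower. Of 14 tested, 6 were lower and 0 higher in 66cl4, and 7 lower and 1 higher in 4T1 tumours, beside 16% and 20.5% of all genes lower. Fcer1g, the gamma chain shared with other Fc receptors, differed by 0.11 ± 0.10 in 66cl4 (limma adjusted p = 0.467) and by -0.70 ± 0.10 in 4T1 tumours (0.000558). Lcp2, an adaptor of the pathway, fell by 1.00 ± 0.13 and by 1.18 ± 0.13 in 66cl4 and 4T1 (limma adjusted p = 0.000288 and 7.55e-05). Fyn, a kinase of the pathway, fell by 0.98 ± 0.19 and by 2.20 ± 0.19 (limma adjusted p = 0.00353 and 2.11e-05). Plcg2 was the gene higher in 4T1, by 1.27 ± 0.20 (limma adjusted p = 0.000691), and had -0.16 ± 0.20 in 66cl4 (0.552). The Plcg2 call in 4T1 ended when the scan file number entered the fit (0.88, adjusted p = 0.0861).

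Of 6 lipid mediator genes 4 were higher and 0 lower in 66cl4, beside 20% and 16% of all genes. In 4T1 tumours 2 were higher and 3 lower, beside 19.4% and 20.5%. Ltc4s, the leukotriene C4 synthase, rose by 2.36 ± 0.38 in 66cl4 (limma adjusted p = 0.00111), and Ptgs2, the inducible cyclooxygenase, by 3.35 ± 0.35 in 4T1 (6.47e-05). Alox5ap differed by 1.33 ± 0.16 in 66cl4 and by -0.85 ± 0.16 in 4T1 (limma adjusted p = 0.000174 and 0.00206). Alox5 differed by 0.96 ± 0.21 and by -1.20 ± 0.21 (limma adjusted p = 0.0056 and 0.00139). With the scan file number fitted, the calls of Alox5ap in 4T1 (adjusted p = 0.107) and Alox5 in 66cl4 (0.0637) ended. Of 11 transcription regulators 1 was lower and 2 higher in 66cl4, and 5 lower and 2 higher in 4T1. Mitf had a mean of 8.32 ± 0.18 in 67NR and 8.22 ± 0.14 in 66cl4 and fell by 0.89 ± 0.16 in 4T1 (limma adjusted p = 0.00161), but not past the threshold once the scan file number was fitted (adjusted p = 0.113). Zfpm1, encoding the GATA cofactor FOG-1, rose by 1.44 ± 0.17 in 66cl4 and by 1.72 ± 0.17 in 4T1 (limma adjusted p = 0.000171 and 4.16e-05).

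**Figure D4:**
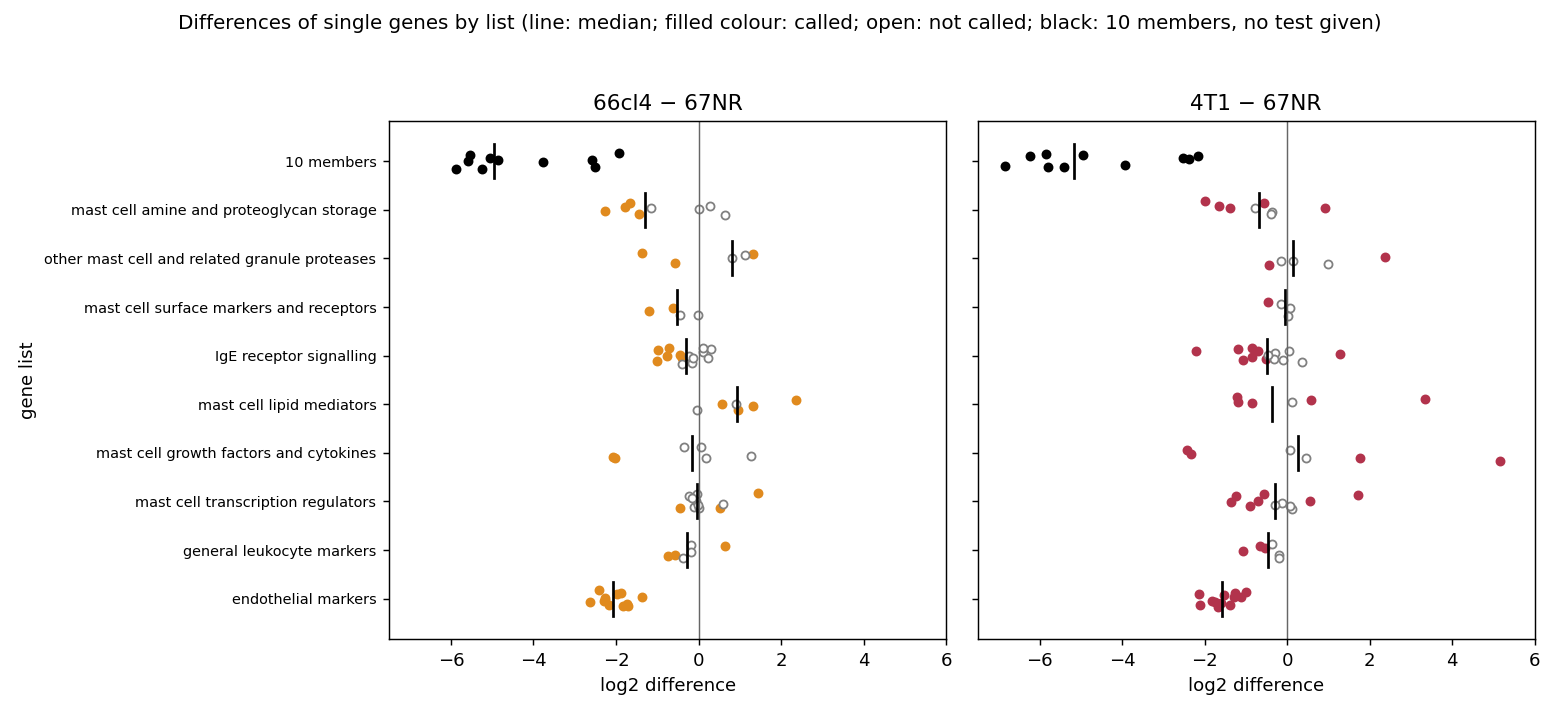
Log2 difference of single genes from 67NR tumours by list, 66cl4 on the left and 4T1 on the right; black bars are list medians, coloured dots genes called at a limma adjusted p under 0.05, open dots genes not called, and black dots the 10 members, for which no test is given. The members' medians are -4.96 and -5.18, and all 12 endothelial markers lie below 0 in both panels.

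Markers of other cells that use Kit or Gata2 had calls in a single direction for endothelium and in both for luminal progenitors. Gata2 is also a regulator of endothelium, and all 12 endothelial markers were lower in 66cl4 and in 4T1 than in 67NR tumours. Of all genes 16% and 20.5% were lower. The medians of the markers were -2.08 and -1.57. Their mean log2 signal per array was 8.82 to 9.21 in 67NR, 6.84 to 7.15 in 66cl4 and 7.36 to 7.51 in 4T1 tumours. Each was above background on at least 1 array of every line, but Erg on only 1 of 3 in 66cl4 tumours. Cdh5, the vascular cadherin, fell by 2.26 ± 0.14 in 66cl4 and by 2.11 ± 0.14 in 4T1 (limma adjusted p = 4.23e-06 and 3.87e-06). The differences in 66cl4 and 4T1 were -2.18 and -1.68 for Robo4, -2.42 and -1.30 for Emcn and -1.72 and -0.99 for Kdr. Those of Gata2 were -1.93 and -2.15. Between 4T1 and 66cl4, 6 of the 12 markers were higher in 4T1 and 0 lower, beside 17.9% and 23.4% of all genes. Gata2 had -0.22 ± 0.16 in that comparison. The part of endothelial cells in the Gata2 and Kit values was not tested.

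Kit also marks luminal progenitors of the mammary gland. Of 8 markers of these cells, Kit among them, Elf5 was not above background on any array. Of 7 tested, 3 were lower and 2 higher in 66cl4, beside 16% lower and 20% higher over all genes. In 4T1 tumours 3 were lower and 1 higher, beside 20.5% and 19.4%. Kit is among those lower in each line, and nothing is read from its call, since these contrasts chose the members. The mean signal per array of the 8 markers, Kit included, was 7.29 to 7.71 in 67NR, 6.66 to 7.03 in 66cl4 and 6.29 to 6.40 in 4T1. Cldn3 was higher in 4T1 by 3.39 ± 0.12 (limma adjusted p = 8.38e-08). Cd14 and Lbp were higher in 66cl4 by 1.69 ± 0.27 and 2.14 ± 0.41 (limma adjusted p = 0.000898 and 0.00266). Csn3 was lower by -2.26 ± 0.38 in 66cl4 and by -5.53 ± 0.38 in 4T1 (limma adjusted p = 0.00142 and 4.8e-06). Prom1, a stem and progenitor surface gene, gave a mean of 8.35 ± 1.39 in 67NR. It was lower by -3.35 ± 0.58 in 66cl4 (limma adjusted p = 0.00168, 1 of 3 arrays above background), and at least 10.4-fold lower in 4T1 (0.000373). Without 67NR replicate 1, at 9.95 the highest array, Prom1 was lower by -2.54 in 66cl4 and at least 5.94-fold lower in 4T1. The melanocyte genes Tyr, Tyrp1, Dct and Mlana were not above background on any array. Of 4 tested haematopoietic progenitor genes 3 were lower and 0 higher in 66cl4 and 1 was lower and 1 higher in 4T1. Cd34, which mast cells and vessels share, was at -1.95 ± 0.26 in 66cl4 and -2.92 ± 0.26 in 4T1 (limma adjusted p = 0.00038 and 2.35e-05). Myb was the higher gene in 4T1, by 2.27 ± 0.22 (limma adjusted p = 4.21e-05). In 66cl4 it was lower by -0.65 ± 0.22 (limma adjusted p = 0.0466) with overlapping arrays. That Myb call ended with quantile normalization (adjusted p = 0.066), no filter (0.0552) and the replicate block (0.0803). Leaving out any single 67NR replicate, 66cl4 replicate 2 or 3, or 4T1 replicate 1 or 2 ended it too. Meis1 was lower in 66cl4 by -0.76 ± 0.18 (limma adjusted p = 0.0103) and was not called in 4T1 (0.31 ± 0.18, limma adjusted p = 0.213). The Meis1 call ended with the mean of probe sets (-0.41, adjusted p = 0.0703) and with the scan file number (-0.64, adjusted p = 0.0966). The part of luminal progenitors in the Kit values was not tested.

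Markers of other granulocytes were measurable in part. All 5 measured eosinophil genes were not above background on any array. Of 5 measured basophil genes 2 were not above background on any array. Of the 3 tested, 2 were lower and 1 higher in 66cl4, beside 16% and 20% of all genes. The 4T1 tumours had 1 lower and 1 higher, beside 20.5% and 19.4%. Mcpt8 was the higher gene, and Il3ra was lower in 66cl4. Itga2b, an integrin gene that platelets also use, was at 8.26 ± 0.20 in 67NR and fell by 1.05 ± 0.13 in 66cl4 and fell by 0.83 ± 0.13 in 4T1 (limma adjusted p = 0.000228 and 0.000757). The part of basophils in the members' values was not tested. General leukocyte genes had a mean signal per array of 10.96 to 11.07 in 67NR, 10.65 to 11 in 66cl4 and 10.44 to 10.61 in 4T1 tumours. The 67NR and 66cl4 ranges overlapped. Of these 6 genes 2 were lower and 1 higher in 66cl4 and 3 lower and 0 higher in 4T1. The higher gene was Cd53, by 0.63 ± 0.21 (limma adjusted p = 0.0396). That call ended when the scan file number entered the fit (0.52, adjusted p = 0.209) and without any single 67NR replicate. Leaving out 66cl4 replicate 1 or 2 ended it too (0.67 and 0.49). Ptprc, the pan-leukocyte CD45 gene, fell by 0.74 ± 0.14 in 66cl4 and by 0.66 ± 0.14 in 4T1 (limma adjusted p = 0.00258 and 0.00391). With the scan file number fitted, Ptprc in 4T1 had -0.64 and an adjusted p of 0.107.

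Genes most like the members over the 9 arrays were sought among 1726 genes with a span of at least 2 on the log2 scale, by Pearson correlation with the mean of the members' standardised values. The 10 nearest were 9630013A20Rik, Cfap299, Zfp423, Klhl4, Cst6, Caps2, Sapcd1, Rgs20, Cdkn2a and Atp13a4, with r = 0.997 to 0.989. None of them belongs to the mast cell lists. Zfp423, a zinc finger factor gene, had means of 8.82, 4.84 and 4.71 in 67NR, 66cl4 and 4T1, and Cst6, a cysteine protease inhibitor gene, 9.10, 4.80 and 4.86. Both were above background on 1 of 3 66cl4 arrays and on 0 of 3 4T1 arrays. The members themselves had r = 0.981 to 0.998 with that mean. Of the further mast cell genes, Slc18a2 at 0.979 and Tph1 at 0.972 were nearest, next to 0.977 for Cdh5. The 9 arrays form 3 groups, which all these values share.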

How the data were processed

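The authors deposited log2 signals of 45101 probe sets for each of 9 single-colour Affymetrix arrays. The scale was read from the values, 2.42 to 14.8. For the probe summary and the normalization, the method is not given in the sources. Array 75th percentiles spanned 0.15, under the limit of 0.5 set for rescaling, so no scaling was added. Symbols came from the platform annotation, updated by Entrez number (34754 of 34958 probe sets with 1 gene; 932 had several and 9211 were unnamed). Genes above the 40th percentile on at least 3 arrays were tested, 13410 of 18194. Group means of the 3 lines were fitted jointly by limma 3.58.1 (lmFit and eBayes under R 4.3.3, 6 residual and 3.63 prior degrees of freedom), two-sided, with Benjamini-Hochberg adjustment over all genes and calls under 0.05. An exact permutation test of 3 against 3 cannot go below 0.1.

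The members and lists were chosen with earlier results of these data known. Of 156 listed genes 140 were measured. All members were named, and up to 4 called genes per list with the smallest p. A gene not above background on any array of a line has a bound against the mean of each array's highest bacterial control. Whether mice with the same replicate number belong together is not stated; p-values measure the spread between mice. The fit was tested on simulated data. Arrays have no read depth, and 3 per line limit the precision. The alternatives were quantile normalization, no filter, the mean of probe sets, a replicate block, the scan file number, an intensity trend, values raised to background and each array left out.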

Additional observations from a re-analysis of the deposited data

How the results depend on the processing

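All 10 members kept their sign against 67NR in both comparisons under the 16 alternatives. The median member difference for 4T1 against 67NR, -5.18, was -4.44 with the mean of probe sets and -4.46 with values raised to the background, and -5.43 to -4.89 with single arrays left out. For 66cl4 against 67NR, -4.96, it was -4.32, -4.34 and -5.20 to -4.67. Between 4T1 and 66cl4 the leave-one-out range was -0.32 to -0.12. When the scan file number entered the fit, 2661 genes were called between 4T1 and 67NR instead of 5348, and 13 further mast cell genes instead of 32; the cause was not tested. With single arrays left out, genes called were 4430 to 5257 (4T1 against 67NR), 3819 to 5215 (66cl4 against 67NR) and 4614 to 5391 (4T1 against 66cl4), and further mast cell genes called were 28 to 33, 17 to 26 and 20 to 25.

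With the replicate block, 5058, 4504 and 5180 genes were called in these comparisons, and 29, 23 and 23 further mast cell genes. Deviations of same-numbered arrays correlated at -0.11 to 0.16, over 0.1 in 2 of 9 pairs, so the numbers were not taken to pair the mice. The Cma1 call between 4T1 and 66cl4 ended with the block (adjusted p = 0.0629) and with the scan file number (0.111).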

Other observations

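Fibroblast markers had calls in both directions. Of 8 fibroblast genes 5 were higher and 1 lower in 66cl4 than in 67NR tumours, beside 20% and 16% of all genes. In 4T1 tumours 5 were higher and 2 lower, beside 19.4% and 20.5%. Lum, a collagen-binding proteoglycan gene, rose by 3.10 ± 0.46 in 66cl4 and by 3.63 ± 0.46 in 4T1 (limma adjusted p = 0.000635 and 0.000193), while Dpt, a dermal matrix gene, fell by 1.70 ± 0.36 in 66cl4 and fell by 2.76 ± 0.36 in 4T1 (limma adjusted p = 0.0051 and 0.000261). Of 6 measured adipocyte genes 3 were not above background on any array, and 1 of the 2 tested was called in each comparison, lower than in 67NR. That gene was Fabp4, a fatty acid carrier also made by vessels and macrophages, which fell by 2.73 ± 0.37 in 66cl4 and by 3.71 ± 0.37 in 4T1 (limma adjusted p = 0.000396 and 4.52e-05). Of 6 tested skeletal muscle genes 1 was lower in each comparison, Myh1 with -3.29 and -3.34 (limma adjusted p = 0.000875 and 0.000679), and 0 were higher. The Myh1 value in 4T1 was -1.75, with an adjusted p of 0.102, once the scan file number was fitted.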
